A study of Mus musculus with 12 samples.

Results

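Loss of Stab1 alone was compared with wild type in mouse liver sinusoidal endothelial cells (LSECs), the fenestrated and strongly endocytic endothelium of the liver's capillaries. The question was which transcripts differ when stabilin-1 alone is missing. The comparison took the 3 arrays whose titles name Stab1KO and the 3 whose titles name wild type (WT), 6 of the 12 arrays of the study, and was described across all 24011 genes tested. The other arrays hold Stab2KO cells and cells lacking both receptors (DKO), 3 each. Every array carries RNA pooled from 3 mice aged 3 to 4 months, taken from cells isolated from perfused livers with CD146 beads, and per the labels each pool is a biological replicate.

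All groups share the labelled strain C57BL/6J, and the labels name no treatment other than the isolation. WT differs from Stab1KO in the labels by genotype alone. How the Stab1 allele was made and in which cells it is lost is not described in the labels, nor is the kinship of the WT and knockout mice, so genotype and colony cannot be told apart. The animals' sex is not stated in the labels. The isolate is selected by 1 surface protein, so it can hold other liver cells, and their marker genes are given beside the results below.

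Stab1 encodes stabilin-1, a class H scavenger receptor with fasciclin and EGF-like domains that shuttles cargo from the cell surface and the Golgi apparatus to lysosomes. In liver it is carried by LSECs and some macrophages, where it takes up modified lipoproteins and matrix proteins. LSECs lie against hepatic stellate cells, the pericytes of the sinusoid, which store vitamin A as retinyl esters and secrete matrix, growth factors and bone morphogenetic proteins (BMPs) that endothelial receptors read.

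The Stab1 transcript followed the labels in every array. It measured 12.55, 12.46 and 12.62 on the log2 scale in WT and 5.30, 5.45 and 5.16 in Stab1KO. The groups lay far apart, with a difference of -7.24 ± 0.12 (moderated SE, 3 arrays a group, limma adjusted p = 1.31e-10). The exact two-sided permutation test over the 6 arrays gave p = 0.1, the smallest that 3 against 3 allow. Stab2, the paralogous receptor of the same cells, measured 12.99, 13.07 and 13.09 in WT and between 12.99 and 13.02 in the 3 Stab1KO arrays, and its groups overlapped (difference -0.04 ± 0.44, exact permutation p = 0.4). This SE comes from all 12 arrays, those of Stab2KO and DKO included, and is wide beside the spread of the 6 arrays compared.

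Beside Stab1 itself, the profile of Stab1KO cells differed from WT mainly by a set of falls. Of the 24011 genes, 74 (0.308%) passed the test at an adjusted p under 0.05. There were 67 falls (0.279%), led by Stab1 and then by Bmp5, Colec10 and Lrat, against 7 rises (0.0292%), led by Nt5dc2. The falls included 4 BMP or GDF ligands, the retinol-esterifying enzyme gene Lrat, 2 collectins, 4 of 35 proteoglycan and matrix glycoprotein genes and 18 of the 33 measured markers of hepatic stellate cells. None of the 31 measured LSEC markers passed the test. The leading falls were not particular to Stab1KO. Bmp5 (-2.52, adjusted p = 0.00169), Colec10 (-2.43, 0.0128) and Lrat (-2.05, 0.00899) were also called lower in Stab2KO against the same WT arrays. Other falls were not, such as Mfsd13a (0.16, adjusted p = 0.869) and Gna14 (0.02, 0.994).

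The size of the differences was uneven. Over all genes the median difference was 0.01 log2, and 98.4% of genes lay within 0.5 log2 of WT. Of the 78 genes that differed by more than 1 log2, 62 were lower and 16 higher in Stab1KO, and 50 of the lower and 4 of the higher ones were called. In all 74 called genes the arrays of the groups did not overlap. Among all genes tested, the 3 Stab1KO arrays lay above all WT arrays in 5.36% and below them in 4.72%. WT replicate 2 held the highest WT value in 55 of the 67 falls. Leaving out each of the 12 arrays in turn kept the call for 42 of the 74 genes, and the number called ranged from 46, without Stab1KO replicate 3, to 81, without DKO replicate 3. It was 47 without Stab1KO replicate 2 and 52 without WT replicate 2, against 74 with all arrays.

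**Figure D1:**
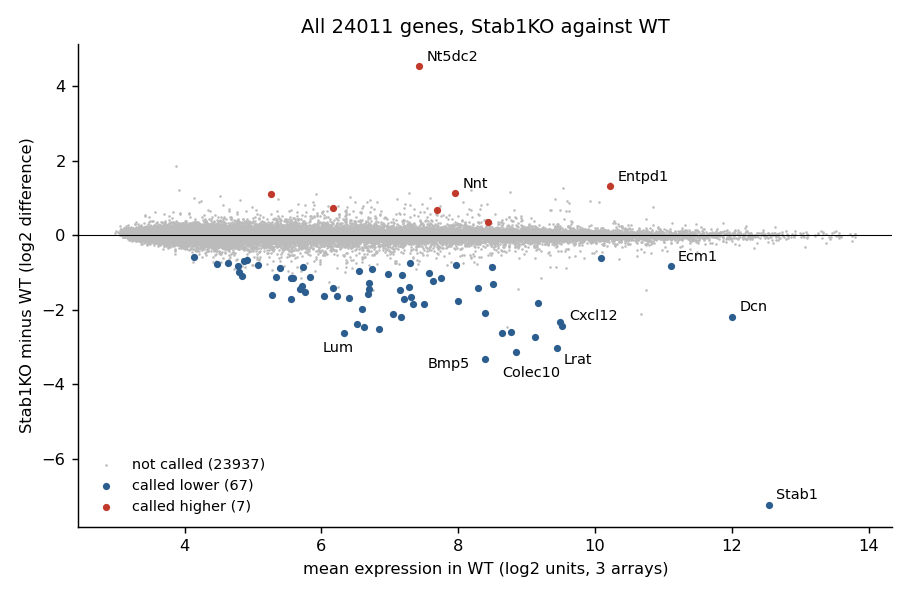
Each point is 1 of the 24011 genes, with its mean in the 3 WT arrays (log2 units) on the x axis and the difference Stab1KO minus WT (log2) on the y axis. Blue points are the 67 called falls, red points the 7 called rises and grey points genes that were not called. Stab1 sits lowest at -7.24, Nt5dc2 highest at 4.55, and most other called genes lie below 0.

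The promoters of the genes that lead the main groups are shown next, from RefSeq on GRCm38.p6, each with 250 bases before and 50 after the annotated start, read 5′ to 3′ on the gene's strand. Bmp5, Gdf2 and Bmp10 stand for the ligands that fell, Lrat for vitamin A storage, Colec11 for the collectins, and Nt5dc2, with the first of its 2 listed promoters, for the largest rise. Capitals mark a forkhead core (TAAACA or TGTTTA on the strand shown) or the E-box CAGCTG, which factors of the Tcf21 family can bind.
Bmp5, chr9:75775115-75775414, plus strand: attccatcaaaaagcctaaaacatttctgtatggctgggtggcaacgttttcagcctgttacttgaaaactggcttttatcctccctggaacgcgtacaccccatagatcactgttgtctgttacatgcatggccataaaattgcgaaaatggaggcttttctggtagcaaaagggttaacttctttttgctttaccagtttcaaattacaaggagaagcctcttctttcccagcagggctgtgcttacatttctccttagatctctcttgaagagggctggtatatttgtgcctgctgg
Gdf2, chr14:33940789-33941088, plus strand: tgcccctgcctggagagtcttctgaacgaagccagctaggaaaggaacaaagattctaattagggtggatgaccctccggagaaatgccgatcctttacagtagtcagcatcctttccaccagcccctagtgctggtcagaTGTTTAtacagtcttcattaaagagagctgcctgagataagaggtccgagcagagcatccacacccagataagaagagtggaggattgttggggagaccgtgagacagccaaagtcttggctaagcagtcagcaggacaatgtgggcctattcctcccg
Bmp10, chr6:87428744-87429043, plus strand: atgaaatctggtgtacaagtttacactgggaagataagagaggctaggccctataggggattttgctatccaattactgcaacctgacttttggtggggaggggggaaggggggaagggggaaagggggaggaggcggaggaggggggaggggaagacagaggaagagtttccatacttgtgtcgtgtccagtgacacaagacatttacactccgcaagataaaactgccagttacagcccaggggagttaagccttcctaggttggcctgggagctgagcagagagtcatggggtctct
Lrat, chr3:82903925-82904224, minus strand: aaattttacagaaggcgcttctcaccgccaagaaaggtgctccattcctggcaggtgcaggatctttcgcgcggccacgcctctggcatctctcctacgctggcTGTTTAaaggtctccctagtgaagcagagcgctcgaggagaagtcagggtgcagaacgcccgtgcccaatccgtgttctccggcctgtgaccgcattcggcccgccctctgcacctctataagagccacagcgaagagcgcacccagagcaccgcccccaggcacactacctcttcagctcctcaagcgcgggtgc
Colec11, chr12:28623281-28623580, minus strand: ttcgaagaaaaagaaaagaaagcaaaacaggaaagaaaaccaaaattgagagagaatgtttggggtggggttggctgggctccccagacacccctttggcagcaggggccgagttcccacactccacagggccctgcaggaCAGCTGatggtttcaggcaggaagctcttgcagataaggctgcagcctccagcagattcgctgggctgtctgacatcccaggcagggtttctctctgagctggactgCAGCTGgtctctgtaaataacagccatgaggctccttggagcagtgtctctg
Nt5dc2, chr14:31130839-31131138, plus strand: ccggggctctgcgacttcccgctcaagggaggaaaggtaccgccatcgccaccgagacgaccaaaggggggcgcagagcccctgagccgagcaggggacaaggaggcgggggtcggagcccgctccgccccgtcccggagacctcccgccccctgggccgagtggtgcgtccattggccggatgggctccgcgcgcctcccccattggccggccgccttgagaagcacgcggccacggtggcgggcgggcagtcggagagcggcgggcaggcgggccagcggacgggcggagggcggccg
Both motifs were searched because genes of factors that can read them, Foxf1 and Tcf21, were themselves among the falls. The forkhead core was present in 8 of 59 promoters of the called falls other than Stab1 (13.6%), against 13.4% of all 32851 promoters of the same length. The E-box was present in 10 of 59 (16.9%), against 16.3% of all promoters. Because both shares lie near those of all promoters, the letters do not set these genes apart. A T-box half-site, GGTGTGA, searched because Tbx20 fell, was present in 0 of 59 and in 3.98% of all promoters, each counted on both strands. The promoters differ in base composition, from 43.3% G and C with 4 CG pairs in Bmp5 to 76.3% with 38 CG pairs in Nt5dc2. Of the 74 called genes, 53 had a listed promoter.

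The largest group of secreted signals among the falls was that of the BMP family. Of 18 measured BMP and growth and differentiation factor (GDF) ligands, 4 fell, 0 rose, and the list's median was -0.13. Bmp5 measured 8.07, 8.90 and 8.21 in WT and 5.31, 4.81 and 5.10 in Stab1KO. It was the largest fall after Stab1 (-3.32 ± 0.23, adjusted p = 0.000126). Bmp10 encodes a circulating ligand of the endothelial receptor Alk1. It measured 6.99, 7.21 and 6.31 in WT against 4.41, 4.27 and 4.25, so that the Stab1KO arrays were close together and all WT arrays stood well above them (-2.52 ± 0.20, adjusted p = 0.000334). Gdf2 encodes BMP9, the other Alk1 ligand, which the liver makes. Its values were 6.87, 7.64 and 6.97 in WT and 5.15, 4.88 and 4.84 in Stab1KO (-2.20 ± 0.23, adjusted p = 0.00158). Gdf10, a divergent member of the family, measured 7.004, 7.58 and 6.55 in WT and 4.99, 4.92 and 4.88 in Stab1KO (-2.11 ± 0.25, adjusted p = 0.00358). For each of the 4 ligands the Stab1KO arrays spread less than the WT arrays, and in each WT replicate 2 was highest. Gdf2 and Gdf10 are next to each other in the order of tested genes on chromosome 14.

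The receiving side of the pathway was also measured. Of 30 BMP receptors, Smads, antagonists and target genes, 0 were called in either direction, and the list's median was 0.00. Over all genes 0.308% were called, so 0 calls in a list of this size do not set it apart or show that its genes are equal in both genotypes. The largest differences were -0.51 for Bmpr1a, a type I receptor, 0.43 for Smad9, a signal transducer, and -0.33 for Hey2, a target gene that Notch also drives. The list's mean ran from 7.58 to 7.67 in the WT arrays and from 7.59 to 7.68 in the Stab1KO arrays, so the groups overlapped.

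Of 29 measured vitamin A storage and retinoid genes, 2 fell and 0 rose, and 14 had a higher mean in Stab1KO. Lrat, the enzyme that esterifies retinol for storage, measured 9.13, 9.77 and 9.42 in WT and 6.68, 6.42 and 6.18 in Stab1KO. No Stab1KO array came within 2 log2 units of a WT array, and the difference was -3.01 ± 0.26 (adjusted p = 0.000571). Tlcd4, earlier named Tmem56, measured 9.09, 9.57 and 8.69 in WT and 6.69, 5.89 and 6.58 in Stab1KO (-2.73 ± 0.26, adjusted p = 0.000834). These were the called members of the retinoid list, whose median was -0.03. Outside that list, Bco1, which cleaves beta-carotene to retinal, fell by 1.10 ± 0.12 from low WT values of 4.73, 5.05 and 4.73 (adjusted p = 0.00255). Cygb, the haem protein cytoglobin that marks stellate cells, measured 8.77, 9.49 and 9.26 in WT and 7.41, 7.11 and 7.53 in Stab1KO (-1.82 ± 0.17, adjusted p = 0.000861).

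Collectins are soluble lectins that start the lectin pathway of complement. Colec10 measured 8.69, 9.26 and 8.59 in WT and 5.73, 5.93 and 5.51 in Stab1KO (-3.12 ± 0.34, adjusted p = 0.00215). Its partner subunit Colec11 measured 8.57, 9.13 and 8.62 in WT and 6.27, 6.21 and 6.05 in Stab1KO (-2.60 ± 0.17, adjusted p = 6.64e-05). In both, WT replicate 2 was highest, Stab1KO replicate 3 was lowest, and the groups stood more than 2 log2 units apart at every array. Of 31 collectin, ficolin and complement genes measured, these 2 fell and C2 rose, around a median of -0.08. C2 encodes a protease subunit of the C3 convertase. It measured 7.71, 7.68 and 7.68 in WT and 8.29, 8.37 and 8.42 in Stab1KO (0.67 ± 0.09, adjusted p = 0.00829). The groups did not overlap, but the C2 call was lost without WT replicate 2 (adjusted p = 0.0518), Stab1KO replicate 2 (0.0524) or Stab1KO replicate 3 (0.0577).

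Several extracellular matrix genes fell. Lum encodes lumican, a small leucine-rich proteoglycan that binds collagen fibrils. It measured 6.29, 6.46 and 6.24 in WT and 3.78, 3.75 and 3.62 in Stab1KO, with a narrow spread in both groups and the second smallest adjusted p of any fall (-2.61 ± 0.13, adjusted p = 7.94e-06). Dcn, decorin, another proteoglycan of this family, was abundant at 11.87, 12.23 and 11.92 in WT and 10.16, 9.47 and 9.82 in Stab1KO (-2.19 ± 0.20, adjusted p = 0.000648). Postn, the matricellular protein periostin, measured 6.15, 7.30 and 6.43 in WT and 4.28, 4.27 and 3.91 in Stab1KO (-2.47 ± 0.28, adjusted p = 0.00329). Reln, the secreted glycoprotein reelin, measured 8.37, 9.06 and 8.51 in WT and 6.54, 5.24 and 6.29 in Stab1KO. Its Stab1KO replicate 2 lay more than 1 log2 unit below the other Stab1KO arrays (-2.62 ± 0.32, adjusted p = 0.00502), and Reln lost its call when only the 6 arrays were fitted. Periostin and reelin are known protein ligands of the stabilins, and these were the 2 called genes among 12 measured genes of stabilin ligands, whose median was -0.31.

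Of 35 proteoglycan and matrix glycoprotein genes measured, 4 fell and 0 rose, around a median of -0.05; the fourth was Ecm1, an abundant secreted glycoprotein that restrains latent TGF-beta (WT mean 11.11, difference -0.83 ± 0.10, adjusted p = 0.00491). Of 25 collagen chains, Col14a1 (-1.43 ± 0.16, adjusted p = 0.00262) and Col6a1 (-0.76 ± 0.12, adjusted p = 0.022) fell, and the median was -0.03. Mmp2, a gelatinase, fell by 1.16 ± 0.12 (adjusted p = 0.00164), and Adamtsl2, a fibrillin-binding matrix protein, by 0.96 ± 0.11 (adjusted p = 0.0036). Col6a1 lost its call without any of 5 arrays, most clearly without WT replicate 3 (adjusted p = 0.136). Other called falls that encode secreted or matrix proteins were Islr (-1.68), Wfdc1 (-1.45), Srpx2 (-1.35), Olfml3 (-1.31), Olfml1 (-1.11) and Spon2 (-0.85). Leaving out some single arrays ended the calls of Olfml3 (highest adjusted p = 0.194, without Stab1KO replicate 2), Spon2 (0.146, without WT replicate 2), Olfml1 (0.117, without WT replicate 2) and Wfdc1 (0.0523, without Stab1KO replicate 3). Of 17 TGF-beta pathway genes, 0 were called, with Tgfbi at -1.47, Ccn2 at 0.98 and Tgfb2 at 0.47.

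Several of the called falls encode receptors, for which no list was set, so their number has no count of all receptors to stand against. Fgfr2, a fibroblast growth factor receptor, fell by 2.08 ± 0.30 (adjusted p = 0.0128). Both receptors for platelet-derived growth factor fell, Pdgfra by 1.98 ± 0.23 (adjusted p = 0.00358) and Pdgfrb by 1.59 ± 0.21 (adjusted p = 0.00741). Ddr2, a collagen receptor kinase, fell by 1.27 ± 0.17 (adjusted p = 0.00886). Among receptors coupled to G proteins, falls were measured for Agtr1a, an angiotensin II receptor (-1.83 ± 0.17, adjusted p = 0.000834), Vipr1, a receptor for vasoactive intestinal peptide (-1.76 ± 0.18, adjusted p = 0.00164), and Pth1r, the parathyroid hormone receptor (-1.71 ± 0.15, adjusted p = 0.000628). Agtr1a was the most even of the 3 in WT, at 7.39, 7.65 and 7.47, against 5.94, 5.23 and 5.84 in Stab1KO. Fgfr2 lost its call without WT replicate 2 (adjusted p = 0.0786), WT replicate 3 (0.0666), Stab1KO replicate 2 (0.0569) or Stab1KO replicate 3 (0.0732). Pdgfrb lost its call without Stab1KO replicate 2 (0.0533), and Ddr2 without WT replicate 2 (0.0569), Stab1KO replicate 2 (0.0539) or Stab1KO replicate 3 (0.0634).

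Another 4 called falls encode proteins that act on cyclic nucleotides or G protein signals; no list of such genes was set. Gucy1a1 (-1.47 ± 0.20, adjusted p = 0.00826) and Gucy1a2 (-0.66 ± 0.10, adjusted p = 0.0159) encode the alpha subunits of the nitric oxide receptor guanylate cyclase. Pde1a, which breaks down cyclic nucleotides, fell by 0.98 ± 0.11 from WT values of 4.81, 4.81 and 4.79 that lie below the array median of 5.11 (adjusted p = 0.00357). Rgs4, which shortens G protein signals, fell by 0.76 ± 0.13 (adjusted p = 0.0441). Gucy1a1 lost its call without WT replicate 2 (adjusted p = 0.0541), Gucy1a2 without any array of the 6 compared (highest 0.105, without WT replicate 3), and Rgs4 without any of 9 arrays (highest 0.259, without WT replicate 2).

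Hedgehog signalling was represented by Hhip, which binds hedgehog ligands and blocks them. Its values were 6.27, 6.89 and 6.39 in WT and 4.38, 3.96 and 4.07 in Stab1KO, and the groups stood apart by -2.37 ± 0.21 (adjusted p = 0.000628). Disp2, a relative of the protein that releases hedgehog ligands, fell by 1.04 ± 0.12 (adjusted p = 0.00358). Among the chemokines, Cxcl12, the ligand of Cxcr4, was the only call in 33 measured ligands. It measured 9.32, 9.77 and 9.45 in WT and 7.36, 6.59 and 7.31 in Stab1KO (-2.42 ± 0.19, adjusted p = 0.000334), and the median of all 33 was -0.04. Angptl6, a secreted angiopoietin-like factor, fell by 1.39 ± 0.13 (adjusted p = 0.000648) as the only call among 18 VEGF, angiopoietin and Tie genes. Adamts13, the protease that trims von Willebrand factor, was the only call among 21 coagulation genes (-0.70 ± 0.11, adjusted p = 0.0264), and it lost that call without any of 7 arrays (highest adjusted p = 0.167, without WT replicate 2). Tnfrsf11b, the decoy receptor osteoprotegerin, fell by 1.42 ± 0.19 (adjusted p = 0.00741), and Igfbp3, which carries insulin-like growth factors, by 1.06 ± 0.18 (adjusted p = 0.0325; 0.179 without WT replicate 3).

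The falls held 4 transcription factor genes. Nr1h5, a nuclear receptor related to the bile acid receptor, fell by 1.61 ± 0.22 (adjusted p = 0.00977). Tcf21, a factor of mesenchymal and stellate cells, measured 5.29, 6.25 and 5.75 in WT and 4.23, 4.40 and 4.12 in Stab1KO (-1.51 ± 0.21, adjusted p = 0.0121). Tbx20 fell by 1.43 ± 0.20 (adjusted p = 0.012), and Foxf1, a forkhead factor of mesenchyme, by 0.91 ± 0.14 (adjusted p = 0.0241). These are among the less firm calls. Leaving out Stab1KO replicate 3 ended the call of each of them, with adjusted p = 0.0634 for Nr1h5, 0.0766 for Tcf21, 0.0732 for Tbx20 and 0.0728 for Foxf1. Without Stab1KO replicate 2, Nr1h5 (0.0631), Tbx20 (0.0828) and Foxf1 (0.117) were lost too, and Tcf21 was also lost without Stab1KO replicate 1 (0.0655) or WT replicate 3 (0.065).

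Sod3, the secreted superoxide dismutase, measured 9.31, 9.89 and 9.25 in WT and 7.53, 6.77 and 7.20 in Stab1KO (-2.32 ± 0.20, adjusted p = 0.000628). It was the only fall among 25 antioxidant and mitochondrial redox genes, whose median was 0.01. Cdh2, which encodes N-cadherin, fell by 1.85 ± 0.20 (adjusted p = 0.00227), Robo2, a receptor for Slit guidance cues, by 1.16 ± 0.17 (adjusted p = 0.0179; 0.11 without WT replicate 2), and Kank1, an adaptor between adhesions and microtubules, by 1.23 ± 0.15 (adjusted p = 0.00502). The remaining called falls with a difference beyond 1 log2 were Fam171b (-1.71), Cped1 (-1.66), Arhgap42 (-1.63), Ms4a4d (-1.62), Mfsd13a (-1.13), Susd2 (-1.12) and Sfxn2 (-1.004). Smaller falls were those of Sprn, Gna14, Lrrn3, Syt9, Arl3, Naalad2, Frrs1 and Baalc, between -0.87 and -0.59. Of these 2 sets, Mfsd13a, Sfxn2, Fam171b and Naalad2 kept their calls whichever array was left out. Even so, Mfsd13a (adjusted p = 0.0788) and Naalad2 (0.0746) were not called when only the 6 arrays were fitted. The other genes of these sets lost their calls without at least 1 array. Their highest adjusted p was 0.0682 for Cped1, 0.0796 for Ms4a4d, 0.145 for Arhgap42, and 0.11 for Susd2 and Sprn. It was 0.118 for Baalc, 0.125 for Frrs1, 0.148 for Syt9, 0.157 for Arl3, 0.194 for Gna14 and 0.241 for Lrrn3. In 33 of the 67 falls the Stab1KO mean lay below the array median of 5.11, where the share of background in a value is unknown, and in 9 the WT mean did.

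**Figure D2:**
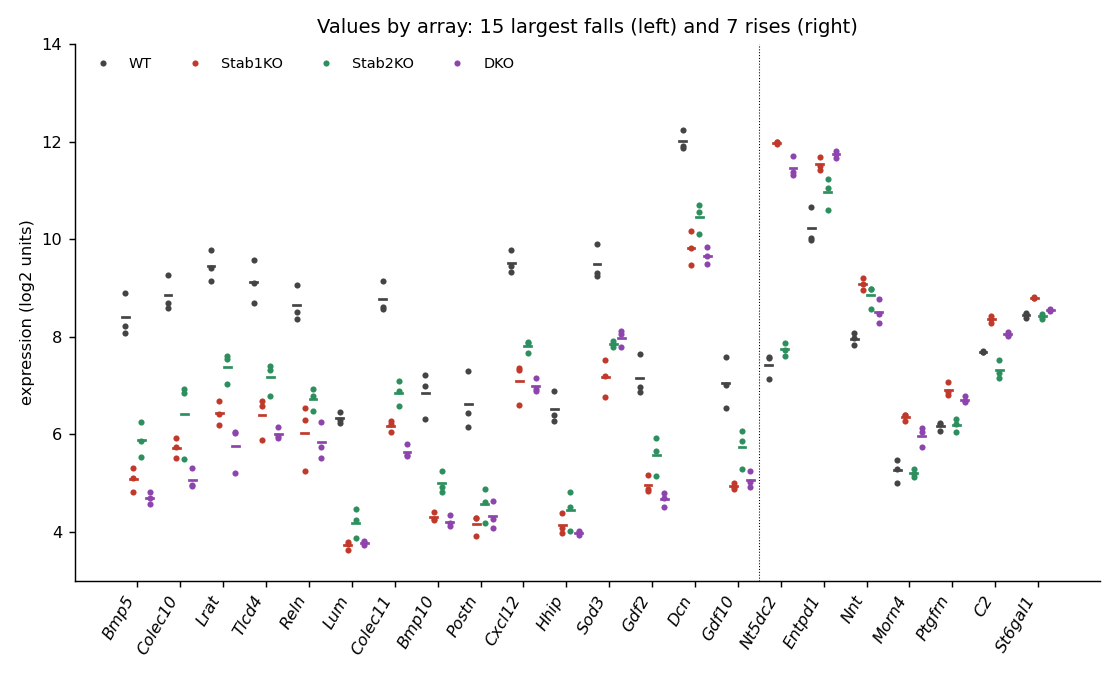
Points are log2 expression values of single arrays and bars are means of 3 arrays, for the 15 largest falls after Stab1 (left of the dotted line) and the 7 rises (right), in all 4 genotypes. For each of these genes the Stab1KO arrays (red) and the WT arrays (black) do not overlap. Nt5dc2 shows the widest gap of the rises, from 7.14 to 7.58 in WT to 11.94 to 11.99 in Stab1KO.

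Many hepatic stellate cell markers were among these falls. The list, which was chosen with earlier results of these data known, had 33 measured genes, of which 18 fell, 0 rose and 32 had a lower mean in Stab1KO. Its median was -1.51, against 0.01 over all genes, of which 0.279% were called lower. The called members were Bmp5, Lrat, Reln, Lum, Colec11, Hhip, Sod3, Dcn, Fgfr2, Pdgfra, Cygb, Vipr1, Pth1r, Pdgfrb, Tcf21, Angptl6, Adamtsl2 and Ecm1. Tmem56 was on the list under its older symbol and was not counted as measured; under its present symbol, Tlcd4, it is among the falls given above.

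The mean of the stellate list was 7.54, 8.02 and 7.67 in the WT arrays and 6.42, 6.18 and 6.30 in the Stab1KO arrays. Its summed level on the linear scale ran from 18236 to 22385 in WT and from 8606 to 9612 in Stab1KO. WT replicate 2, the highest WT array in most falls, was also the highest in this list, and the groups did not overlap. Since 18 of the list's 33 measured members are themselves called falls, this is not a separate observation. The list's mean was 6.54 to 6.67 in the Stab2KO arrays and 6.19 to 6.39 in the DKO arrays, so the WT arrays stood above the arrays of every knockout group. With the list's mean as a covariate only Stab1 was called and the median SE over all genes rose from 0.12 to 0.51; since the list's means do not overlap between WT and Stab1KO, the covariate and the genotype cannot be told apart. The part of stellate cell content in the falls was not tested further. In pooled cells of this kind, fewer cells of a type and less RNA per cell cannot be told apart.

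Members of the stellate list did not fall by a like amount. Lrat and Bmp5 were lower by 3.01 and 3.32 log2, while Ecm1 and Adamtsl2 were lower by less than 1 log2. Some members that are often used to define these cells were not called: the differences were -0.68 for Des, the intermediate filament desmin (5.66, 6.21 and 5.82 in WT; 5.33, 5.36 and 4.95 in Stab1KO; adjusted p = 0.708), -0.42 for Col1a1 and -0.04 for Gfap, whose groups overlapped. The Stab1KO arrays of Des all lay below WT, and its error, too, comes from all 12 arrays. Steap4 (-2.45 ± 0.67, adjusted p = 0.597) and Rgs5 (-2.12 ± 0.42, adjusted p = 0.12) were not called, though their Stab1KO arrays all lay below WT. Their errors come from all 12 arrays; with only the 6 arrays of this comparison the SEs were 0.28 and 0.19, and both genes were called (adjusted p = 0.0273 and 0.013). These uncalled members were named after their values were seen. A neighbouring list, 19 smooth muscle and portal fibroblast genes, held 0 calls with a median of 0.03, and its largest difference was that of Mustn1 at -1.44.

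**Figure D3:**
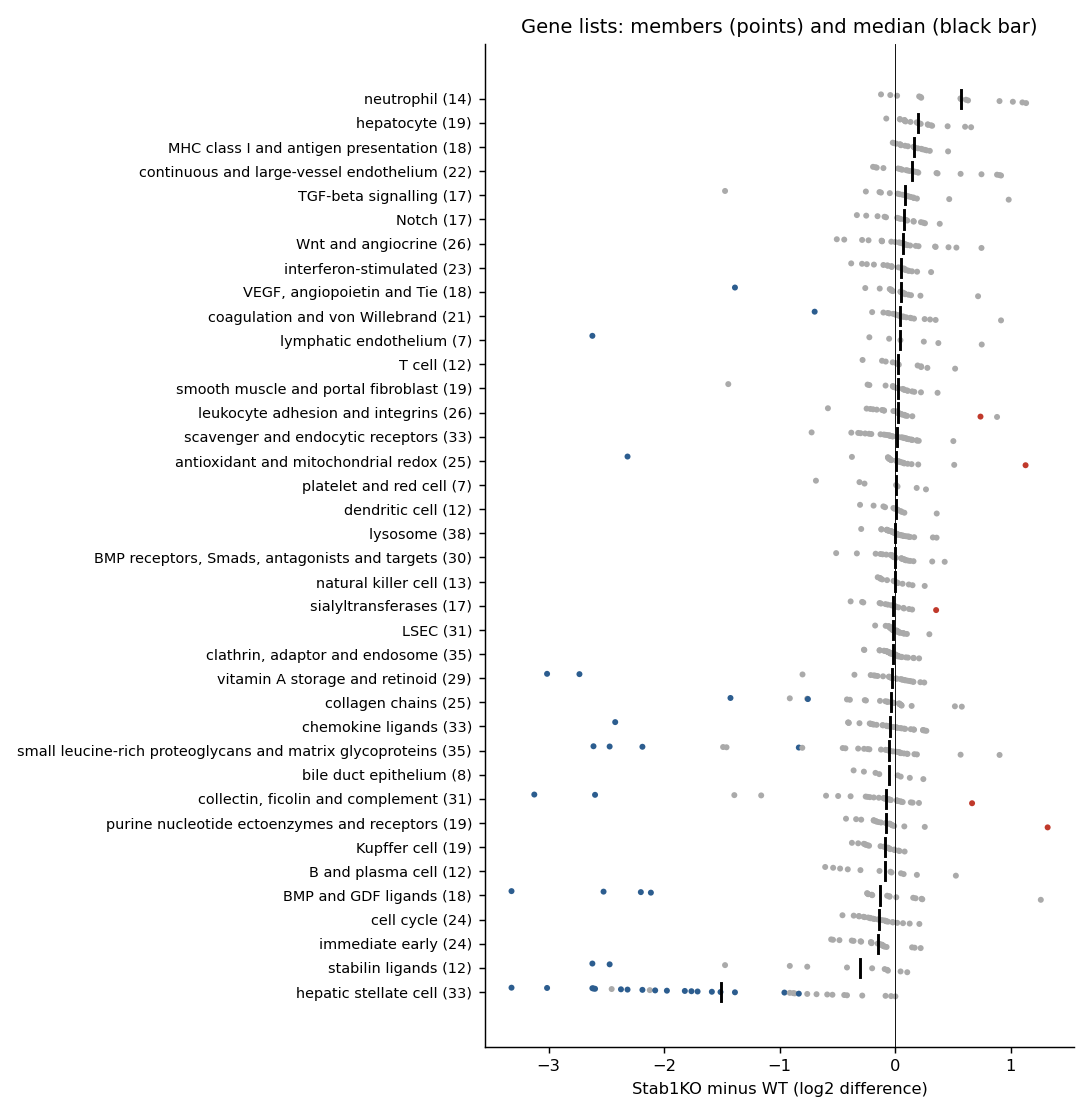
Each row is a gene list with its number of measured genes, each point a member's difference Stab1KO minus WT (log2) and the black bar the list's median. Blue points are called falls, red points called rises and grey points not called. The stellate list has the lowest median, -1.51; the other medians lie between -0.31 and 0.57.

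The markers of LSECs themselves were abundant in both groups. Of 31 measured, 0 were called, beside 0.308% of all genes, and the median difference was -0.02. The list's mean ran from 12.38 to 12.39 in WT and from 12.38 to 12.40 in Stab1KO, which are high values for these arrays. Its largest differences were 0.30 for Ntn4, -0.17 for Il1a and 0.10 for Wnt2.

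The endocytic machinery that stabilin-1 works with held 0 calls in 3 lists. Among 33 other scavenger and endocytic receptors the median was 0.02, with Lrp1 at -0.72, Cd14 at 0.50 and Axl at -0.38. Among 38 lysosomal genes the median was 0.00, with Cd63 at 0.36, Ctsh at 0.33 and Ctsc at -0.29. Among 35 clathrin, adaptor and endosome genes the median was -0.02, and the largest differences were -0.27 for Gga3 and Ehd1 and 0.21 for Igf2r. A missed threshold does not show that these genes are equal in both genotypes. The median SE over all genes was 0.12 log2.

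Markers of other cells gave 0 calls in the lists of Kupffer cells (19 genes), neutrophils (14), T cells (12), natural killer cells (13), B and plasma cells (12), dendritic cells (12), hepatocytes (19), bile duct (8), platelets and red cells (7) and large-vessel endothelium (22). With 0.308% of all genes called, 0 calls do not set lists of these sizes apart. The neutrophil list had the highest median, 0.57, with Retnlg at 1.13, S100a9 at 1.10 and S100a8 at 1.02, and its summed level ran from 605 to 901 in WT and from 654 to 2082 in Stab1KO. The SEs of these genes were 1.35, 0.97 and 1.10, against a median SE of 0.12 over all genes. They come from all 12 arrays, and the list's mean was 11.3 in DKO replicate 3. The 0 calls in the neutrophil list therefore do not show that WT and Stab1KO are alike in it. Hepatocyte genes had a median of 0.19 and overlapping means, 7.55 to 8.56 in WT and 7.54 to 8.71 in Stab1KO. Kupffer cell genes had a median of -0.08, with means of 8.41 to 10.07 in WT and 8.97 to 9.70 in Stab1KO. For large-vessel endothelium the median was 0.14, led by Vwf at 0.92, Fbln2 at 0.90 and Selp at 0.88, with means of 9.10 to 9.50 in WT and 9.46 to 9.60 in Stab1KO. Of 7 lymphatic genes, Reln was the only call.

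**Figure D4:**
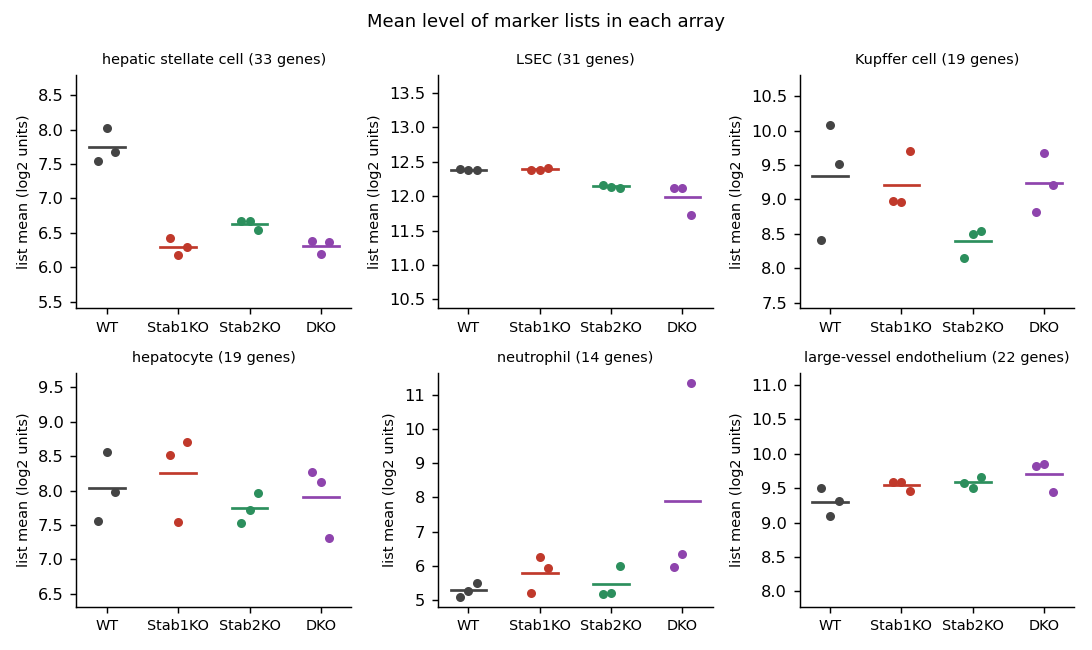
Each panel shows the mean log2 level of 1 marker list in each of the 12 arrays (points) and the mean of each genotype (bars); every panel has its own y axis. In the stellate panel the WT arrays lie between 7.54 and 8.02 and the Stab1KO arrays between 6.18 and 6.42, while in the LSEC, Kupffer, hepatocyte and neutrophil panels the WT and Stab1KO points overlap.

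Further lists of endothelial and cell state genes were mostly without calls. Wnt and angiocrine genes (26, median 0.07, Rspo3 at 0.75), Notch genes (17, median 0.08, Jag1 at 0.39), interferon-stimulated genes (23, median 0.05), immediate early genes (24, median -0.14, Fosb at -0.55) and cell cycle genes (24, median -0.14, Top2a at -0.46) each held 0. MHC class I and antigen presentation genes also held 0 calls, but 16 of 18 had a higher mean in Stab1KO. That list's mean ran from 9.97 to 10.01 in WT and from 10.13 to 10.17 in Stab1KO without overlap, and its median was 0.16. Such an uneven count was not particular to it. A higher mean in Stab1KO was found for 18 of 19 hepatocyte genes, and a lower one for 21 of 24 immediate early and 20 of 24 cell cycle genes.

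The rises were few and did not share a list. Nt5dc2, which encodes a protein with a nucleotidase domain, measured 7.57, 7.58 and 7.14 in WT and 11.94, 11.98 and 11.99 in Stab1KO. This is the only difference beyond 4 log2 other than that of Stab1 (4.55 ± 0.14, adjusted p = 4.7e-08). In the RefSeq annotation Nt5dc2 is the direct neighbour of Stab1 on chromosome 14, on the plus strand where Stab1 is on the minus strand, so that the genes run towards each other, and their annotated 3′ ends overlap. Whether its signal comes from transcripts of Nt5dc2 or from the altered locus was not tested. Of the 20 tested genes nearest to Stab1, 10 on each side, Nt5dc2 was the only call. Smim4, the next gene beyond Nt5dc2, was 0.73 higher (adjusted p = 0.0507) and Nisch, on the other side of Stab1, 0.43 higher (adjusted p = 0.334), each with no overlap between the groups.

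Entpd1 encodes CD39, the surface enzyme that removes extracellular ATP and ADP. It measured 10.66, 9.97 and 10.02 in WT and 11.51, 11.69 and 11.42 in Stab1KO, with WT replicate 1 above the other WT arrays (1.32 ± 0.20, adjusted p = 0.0165). It was the only call among 19 genes of purine ectoenzymes and receptors, and its call ended without WT replicate 2 (adjusted p = 0.101), WT replicate 3 (0.105) or Stab1KO replicate 1 (0.0748), 2 (0.107) or 3 (0.0634). Ptgfrn, a tetraspanin-binding membrane protein, measured 6.22, 6.06 and 6.24 in WT and 6.87, 6.80 and 7.06 in Stab1KO (0.74 ± 0.10, adjusted p = 0.00639), and it was not called when only the 6 arrays were fitted. Morn4 measured 5.47, 5.01 and 5.29 in WT and 6.40, 6.40 and 6.26 in Stab1KO (1.10 ± 0.13, adjusted p = 0.0038). St6gal1, a sialyltransferase, had the smallest called difference. Its values of 8.46, 8.39 and 8.48 in WT and 8.79, 8.79 and 8.81 in Stab1KO differed by 0.35 ± 0.06 (adjusted p = 0.0418), and the call ended without any of 11 of the 12 arrays, up to 0.264 without WT replicate 2.

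Nnt encodes the mitochondrial nicotinamide nucleotide transhydrogenase, and C57BL/6J mice are known to carry a deletion in this gene that related C57BL/6 substrains lack. Nnt measured 7.96, 8.07 and 7.83 in WT and 9.08, 8.96 and 9.21 in Stab1KO (1.13 ± 0.15, adjusted p = 0.00645). The mean was 8.84 in Stab2KO and 8.50 in DKO, so every knockout group's mean lay above that of WT. Substrain was not tested, since the labels give the same strain for every array.

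The position of the called genes was counted by chromosome. Chromosome 19 held 8 of the 74 called genes (10.8%) and 3.18% of the genes tested, and 1.05% of its genes were called. In order along the chromosome they were Ms4a4d, Gna14, Kank1, Entpd1, Morn4, Mfsd13a, Arl3 and Sfxn2. The last 5 lie within a stretch of 113 tested genes, and both Entpd1 and Morn4, which rose, and Mfsd13a, Arl3 and Sfxn2, which fell, are in it. Mfsd13a measured 7.92, 7.70 and 7.61 in WT and 6.28, 6.62 and 6.92 in Stab1KO (-1.13 ± 0.14, adjusted p = 0.00535). None of these 8 is on the stellate list. Chromosomes 3 and 9 held 9 called genes each (12.2% each), with 4.69% and 5.5% of the genes tested, so that 0.802% and 0.684% of their genes were called.

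The same loss of Stab1 was also measured in cells that lack Stab2, by DKO against Stab2KO. These arrays belong to neither group of the comparison with WT, but all 12 entered 1 model and share its estimate of the spread, so the calls are not independent. There, 822 genes (3.42%) were called, 2.12% lower and 1.30% higher, and 57.8% of all genes had a negative difference. That number was 45 without Stab2KO replicate 2, 81 without Stab2KO replicate 1, 366 without DKO replicate 1, and 513, 433 and 423 without WT replicate 1, 2 and 3. Leaving out Stab1 itself, 60 of the 73 genes called in Stab1KO had the same sign and 16 were called the same way. With Stab1 these numbers were 61 of 74 and 17. The number called the same way was 3 without Stab2KO replicate 2, 4 without Stab2KO replicate 1, 9 without DKO replicate 1, 10 without DKO replicate 2 and 11 without Stab1KO replicate 3. When each comparison was fitted on its own 6 arrays, an alternative added after seeing the data, 50 genes were called in Stab1KO and 4 in DKO. Of those 50, 39 had the same sign in DKO against Stab2KO and only Stab1 and Nt5dc2 were called in both. DKO replicate 3 stood apart from the other arrays, with correlations of 0.956 to 0.968 against at least 0.987 among the other 11. Its mean of the 14 neutrophil markers was 11.3, against 5.10 to 6.36 in the other arrays. Without it, 821 genes were called in DKO against Stab2KO and 14 the same way as in Stab1KO.

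Of the 7 rises, 4 rose again: Nt5dc2 (3.73 ± 0.14, adjusted p = 2.55e-07), Morn4 (0.77 ± 0.13, adjusted p = 0.0187), C2 (0.73 ± 0.09, adjusted p = 0.00679) and Ptgfrn (0.51 ± 0.10, adjusted p = 0.0248). Of the 66 falls other than Stab1, 12 fell again. These were Bmp5 (-1.18), Lrat (-1.63), Tlcd4 (-1.16), Colec11 (-1.21), Cxcl12 (-0.82), Vipr1 (-0.99), Pth1r (-0.66), Angptl6 (-0.57), Adamtsl2 (-0.58), Mfsd13a (-0.94), Gna14 (-0.74) and Arl3 (-0.57). The median over the 66 genes was -1.43 in Stab1KO against WT and -0.30 in DKO against Stab2KO, beside -0.03 over all genes. These genes were picked as falls in the first comparison, which alone favours a larger median there. The medians therefore do not show by how much the effect differs between the backgrounds. The stellate list already stood lower in Stab2KO than in WT, as given above. Of the 8 genes on chromosome 19, Gna14, Morn4, Mfsd13a and Arl3 were called the same way, and Kank1 was called the opposite way (1.61 ± 0.15, adjusted p = 0.00145).

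**Figure D5:**
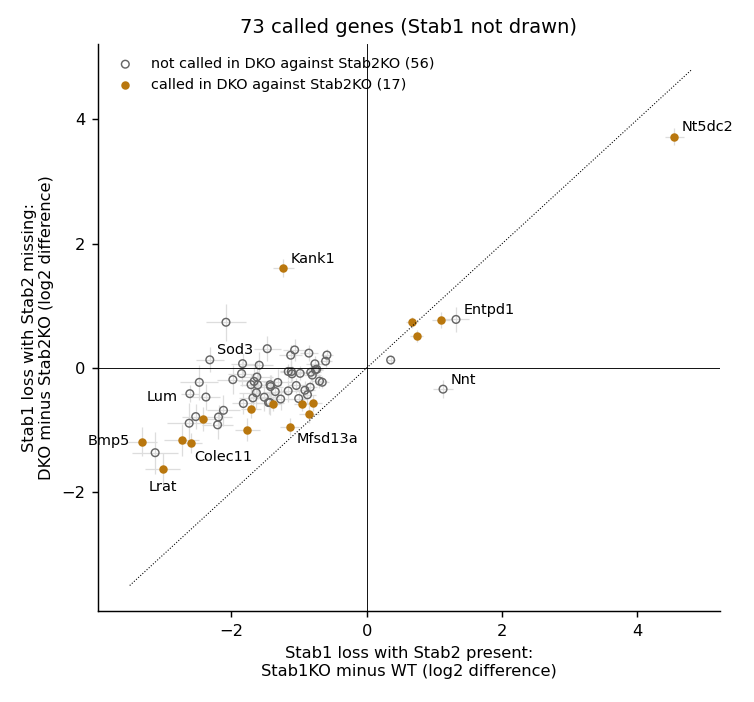
Each point is 1 of the 73 called genes other than Stab1, with its difference Stab1KO minus WT (log2) on the x axis and DKO minus Stab2KO (log2) on the y axis; grey lines are moderated SEs and the dotted line marks equal differences. Filled points are called in DKO against Stab2KO. Nt5dc2 lies near the dotted line, most falls lie nearer to 0 on the y axis than on the x axis, and Kank1 lies above 0.

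Whether the Stab1 effect differed with Stab2 present or missing was tested directly as a departure from additivity. Of all genes, 12 (0.05%) were called, 5 of them among the 74. The 74 were picked by the difference Stab1KO minus WT, which is part of this contrast. That alone favours departures among them, so the count of 5 is not a separate observation. The Stab1 effect with Stab2 present minus that with Stab2 missing was -2.84 ± 0.21 for Kank1 (adjusted p = 0.000721). It was -2.20 ± 0.19 for Lum (adjusted p = 0.00158), -2.45 ± 0.29 for Sod3 (adjusted p = 0.0253) and -1.90 ± 0.24 for Agtr1a (adjusted p = 0.0253). For Nnt it was 1.47 ± 0.21 (adjusted p = 0.0469). Lum, Sod3 and Agtr1a differed by -2.61, -2.32 and -1.83 with Stab2 present, and by -0.41, 0.13 and 0.07 with it missing. In Lum, Sod3 and Agtr1a the means were already low in Stab2KO, at 4.19, 7.85 and 5.86, against 6.33, 9.48 and 7.50 in WT. The Lum means of all knockout groups lay below the array median of 5.11, with a lowest value of 2.94 in the table. Whether background at such levels limits a further fall in DKO was not tested. The number called depended on single arrays, from 3 without Stab1KO replicate 3 or Stab2KO replicate 2 to 112 without DKO replicate 3.

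Stab1KO and Stab2KO cells were also set against each other. Of 26 genes called (0.108%), 6 were among the 74 called against WT, and this comparison shares its Stab1KO arrays with the first. Besides Stab1 and Nt5dc2 they were Morn4 (1.15 higher in Stab1KO), C2 (1.04 higher), Ptgfrn (0.72 higher) and Mfsd13a (-1.29). None of the 18 called stellate markers passed the test between the single knockouts, which does not show that they are equal there. All 66 falls other than Stab1 had a lower mean in Stab1KO than in Stab2KO. They were picked as low in the same Stab1KO arrays, which alone favours that direction.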

How the data were processed

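The authors deposited a table of log2 expression values from Affymetrix arrays. RMA (background correction, quantile normalization, probe summary) is named in the submitters' processing notes, with its version and the genome build not given in the sources used here. There were 24973 rows and values from 2.94 to 13.9. Of these rows, 24015 had 1 gene symbol in the platform annotation, 0 had several and 958 are unnamed here. Of rows sharing a symbol the one with the highest mean was kept, which left out 4. The 24011 genes were tested with limma 3.58.1 in R 4.3.3, with 1 model of 4 group means over the 12 arrays, two-sided moderated tests (eBayes defaults) and Benjamini-Hochberg adjusted p-values. Genes under an adjusted p of 0.05 were called. All adjusted p-values are limma's, and errors are moderated SEs. Precision is limited by the 3 arrays per group. Between the 6 arrays, correlations across genes were 0.991 to 0.996, and the script was tested on simulated data.

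Members and lists were chosen with earlier results of these data known. Of 788 genes in 38 lists, 745 were measured; lists are described by counts and medians with no set test. Every called gene could be named, with the value of every array for all rises and the 15 largest falls after Stab1. Of each list up to 6 called members were to be named, or, where none was called, up to 3 with the largest difference; of the stellate list all 18 called members are named. RefSeq (GRCm38.p6) gave positions in gene order for 23918 genes, and promoters; the build of the array is not named, so no gene coordinates are given. Protein sequences were not used here. Alternatives were a replicate block, a filter at the 40th percentile of gene means, trend and robust options, array weights, further normalization, fewer arrays, every row, the stellate mean as a covariate, and each array left out.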

Additional observations from a re-analysis of the deposited data

Results flagged for a closer look

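In 5 genes called in Stab1KO against WT, the effect of Stab1 loss differed between cells with and without Stab2, by the test of that difference itself (limma). The tested difference contains the Stab1KO minus WT value by which these genes were picked, which alone favours departures among them. The effect with Stab2 present minus that with Stab2 missing was -2.84 log2 for Kank1, which fell in Stab1KO and was higher in DKO than in Stab2KO. It was -2.20 for Lum, -2.45 for Sod3 and -1.90 for Agtr1a, whose differences with Stab2 missing were -0.41, 0.13 and 0.07. Sod3 and Agtr1a each had an adjusted p of 0.0253 (limma). Their means were already low in Stab2KO, at 7.85 and 5.86, against 9.48 and 7.50 in WT. The number of genes called in this test ranged from 3 to 112 as single arrays were left out. The Lum means of 3.72 in Stab1KO, 4.19 in Stab2KO and 3.78 in DKO lie below the array median of 5.11, where the share of background is unknown. Whether this limits a further fall with Stab2 missing was not tested, so the Lum value alone does not show that the Stab1 effect itself differs. For Nnt it was 1.47, with a difference of 1.13 in Stab1KO against WT and of -0.34 in DKO against Stab2KO. No cause was tested for any of these.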

How the results depend on the processing

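The labels name no pairing by the replicate numbers 1 to 3, and the main model used none. Same-numbered WT and Stab1KO arrays deviated together with correlations of -0.04 to 0.07 (-0.06 to 0.29 over all group pairs). Arrays with unlike numbers were not compared in this way, so these values do not settle whether the numbers pair the arrays. The median SE over all genes was 0.1158 with a replicate block and 0.1199 without. The replicate block left 58 calls against WT, 57 of them among the 74, and 6 departures from additivity. Of all 74 called genes, 0 changed sign outside the covariate fit, and 35 kept their call in every other setting in which they were tested. The low-signal filter left only 65 of the 74 to be tested. Pde1a, Bco1 and Fam171b, which are among the 35, were removed by it and had no test there. The number called was 66 with the low-signal filter, 75 with trend and robust options, 79 with array weights, 73 after further normalization, 72 without the DKO arrays, 80 with every row and 50 with only the 6 arrays, where 43 were lower. Of the 50, 42 were among the 74. Genes not called in that fit include Adamtsl2 (adjusted p = 0.0576), Tnfrsf11b (0.0833), Islr (0.0507) and Pdgfrb (0.0514). With each comparison fitted on its own 6 arrays, added after seeing the data, 2 genes were called the same way. The rises numbered 11 with array weights. The number departing from additivity was 28 with the filter, 35 with trend and robust options and 199 with array weights, which also gave 26 genes called the same way in DKO against Stab2KO; the cause was not tested. Leaving out each array in turn gave 46 to 81 genes called, 4 to 15 higher, 41 to 70 lower, 3 to 18 called the same way, 3 to 112 departing from additivity, and -7.31 to -7.17 for Stab1. With the stellate mean as a covariate, 1 gene was called, 0 higher and 1 lower, 1 was called the same way and 0 departed from additivity; 48 of the 66 falls stayed below 0, around a median of -0.26. In that fit 18 differences turned positive: Adamtsl2 0.02, Tbx20 0.085, Tnfrsf11b 0.13, Foxf1 0.16, Islr 0.21, Pdgfrb 0.22, Ms4a4d 0.27, Gdf2 0.31, Spon2 0.34, Lrrn3 0.37, Pdgfra 0.41, Arhgap42 0.42, Olfml3 0.42, Postn 0.56, Tcf21 0.61, Reln 0.72, Nr1h5 0.73 and Fgfr2 1.20. Values below the array median hold an unknown share of background. This limits large folds too: the Stab1KO means of Bmp5, Lum, Bmp10, Postn, Hhip, Gdf2 and Gdf10 lay below it.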

Other observations

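Genes with a difference beyond 1 log2 that were not called numbered 24, 12 in each direction, and were named after their values were seen. Among the higher ones were the acute-phase genes Saa1 (1.85) and Hp, the signals Bmp4 (1.26 ± 0.36, adjusted p = 0.681) and Edn1 (1.15), and Pgm5 (1.40), a cytoskeletal relative of phosphoglucomutase. Bmp4 measured 10.36, 8.90 and 9.32 in WT and 10.94, 11.13 and 10.30 in Stab1KO, so its groups overlapped. Among the lower ones were Sparcl1 (-1.49), Tgfbi (-1.47), Lamb1 (-1.46), C1s1 (-1.39) and Fcna (-1.16).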
